A study of Mus musculus with 16 samples.

Results

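The AP-1 genes studied here are the 10 genes Jun, Junb, Jund, Fos, Fosb, Fosl1, Fosl2, Atf3, Batf and Batf3, out of 21851 protein-coding genes of the GENCODE M21 annotation (mouse build mm10). They were chosen by name. A window of the gene body plus 5 kb on either side was drawn around each gene, and the 1 kb before and after each start site (of coding transcripts) was taken as a promoter. The 10 genes have 13 such start sites, 3 in Fosb, 2 in Atf3 and 1 in each of the others.

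Histone marks were mapped by chromatin immunoprecipitation followed by sequencing (ChIP-seq) in hematopoietic stem cells (HSCs) of C57BL/6 mice. Young mice were 10 weeks old and Aged mice were 20 months old, and the labels give neither group a transgene, deletion or treatment. HSCs were sorted from bone marrow. The gate was positive for CD150, c-kit and Sca-1, and negative for Lin, Flt3, CD48, CD34 and IL-7Rα. The labels list 16 libraries, 2 for each of 3 marks and for the input at each age, but each mark and age was deposited as 1 pooled peak list. The 6 lists therefore carry no spread between replicates, and no difference between Young and Aged HSCs below was tested.

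AP-1 is a dimeric transcription factor whose subunits share a basic leucine zipper (bZIP). Jun proteins pair with each other or with Fos proteins, whereas Fos proteins need a partner such as Jun to bind DNA, and Atf3, Batf and Batf3 are related subunits that pair with Jun proteins. Many of these genes are immediate-early genes, switched on within minutes by growth factors, cytokines or stress, and in the hematopoietic system Junb is known to restrain the expansion of HSCs and myeloid cells. H3K4me3 is found at promoters that are active or poised, while H3K27me3 and H2AK119ub1 are deposited by Polycomb repressive complexes 2 and 1.

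The stretches upstream of the start sites are shown first for the genes with the highest −log10 q-values of H3K4me3 promoter peaks when summed over both ages (Fosb, Atf3, Fos and Jun) and for Batf3, whose promoter carried H3K27me3 in Young and H2AK119ub1 in Aged HSCs. They were taken from the RefSeq promoters of GRCm38.p6, which hold 250 bases before and 50 bases after each start, and 9 of the 10 genes matched. Each runs 5′ to 3′ in the direction of transcription, and capitals mark motif matches on either strand. Fosl1, which also carried a Polycomb region at its promoter, is named only. The Fosb stretch lies at chr7:19310046-19310295 (minus strand), Atf3 at chr1:191183334-191183583 (minus strand), Fos at chr12:85473640-85473889 (plus strand), Jun at chr4:95052223-95052472 (minus strand) and Batf3 at chr1:191098164-191098324 (plus strand).
Fosb: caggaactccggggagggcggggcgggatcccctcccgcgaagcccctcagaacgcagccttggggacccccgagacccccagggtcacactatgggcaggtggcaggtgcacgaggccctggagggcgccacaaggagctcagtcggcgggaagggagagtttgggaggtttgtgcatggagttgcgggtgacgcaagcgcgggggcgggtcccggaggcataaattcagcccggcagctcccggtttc
Atf3: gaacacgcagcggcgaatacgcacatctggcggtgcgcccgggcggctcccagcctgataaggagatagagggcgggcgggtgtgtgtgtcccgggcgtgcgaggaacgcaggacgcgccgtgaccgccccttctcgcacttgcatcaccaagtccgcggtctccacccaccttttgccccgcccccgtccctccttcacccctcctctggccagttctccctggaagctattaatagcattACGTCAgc
Fos: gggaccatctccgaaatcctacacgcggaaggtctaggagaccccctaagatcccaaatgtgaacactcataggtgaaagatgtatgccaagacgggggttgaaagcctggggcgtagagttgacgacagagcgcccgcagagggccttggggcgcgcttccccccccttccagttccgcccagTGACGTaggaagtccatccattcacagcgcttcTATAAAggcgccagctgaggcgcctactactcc
Jun: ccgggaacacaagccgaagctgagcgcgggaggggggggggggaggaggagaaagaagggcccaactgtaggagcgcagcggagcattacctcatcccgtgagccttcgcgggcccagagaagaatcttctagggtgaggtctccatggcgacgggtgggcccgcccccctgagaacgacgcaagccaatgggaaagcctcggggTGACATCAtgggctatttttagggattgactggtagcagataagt
Batf3: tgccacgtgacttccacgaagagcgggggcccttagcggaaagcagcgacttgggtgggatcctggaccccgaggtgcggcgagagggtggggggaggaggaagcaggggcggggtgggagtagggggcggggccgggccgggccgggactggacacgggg

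In the Young H3K4me3 list a peak covered 238 of the 250 bases shown for Fosb, and in the Aged list a peak covered 220 of the 250 bases shown for Atf3. No listed peak touched the stretches of Fos, Jun and Batf3, where the nearest peaks lay further downstream or upstream. The AP-1-like motif TGACATCA was found in Jun from -45 to -38 bp of the start, and 3.62% of 32851 RefSeq promoters of this length hold it. The first 6 letters of the cyclic AMP response element, TGACGT, were present in Fos (-66 to -61 bp), Batf (-98 to -93 bp) and, as ACGTCA on the other strand, Atf3 (-8 to -3 bp), against 7.51% of all promoters. This hexamer was added after the sequences were read, and it includes every match of the whole element TGACGTCA.
The TATA motif TATAAA stood in Fos from -33 to -28 bp and in Junb from 0 to 5 bp, that is, from the start base onwards, and 13.6% of promoters hold it. The whole element TGACGTCA (1.79% of promoters), the AP-1 site TGANTCA (7.81%) and the CArG box, the binding motif of serum response factor (1.63%), were not found in these windows of any of the 9 genes. Sites more than 250 bases upstream of the RefSeq start were not searched, so these motifs may still lie there.

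The base composition of the promoters varied widely among the AP-1 genes. Batf3 had the highest GC content at 75.7%, higher than 96.7% of all promoters, and Jund the lowest at 46.7%, against a median of 52.7% over all promoters. Fosb had 68.3%, Junb 65.3%, Atf3 and Fosl2 64.7% each, Jun 60.0%, Fos 58.7% and Batf 49.7%. The observed number of CpG dinucleotides over the number expected from C and G was 1.03 in Fosl2, 0.914 in Batf3, 0.867 in Atf3, 0.775 in Fos and 0.735 in Fosb, against a median of 0.384. It was 0.666 in Junb, 0.594 in Jun, 0.487 in Batf and 0.184 in Jund, so that only Jund among the 9 lay below the median. The RefSeq start of Jund lies at -1210 bp from the start in GENCODE, so its composition describes another stretch than the promoter used for peaks.

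The lists differed in length between the ages, which bears on every count below. They held 11371 Young and 6723 Aged H3K4me3 peaks, 63142 Young and 20419 Aged H3K27me3 regions, and 2593 Young and 17768 Aged H2AK119ub1 regions. The lists do not give the depth of sequencing. For H3K4me3 the number of reads over each summit could be recovered, with a median of 20 reads for Young and 19 reads for Aged peaks and 13 reads at the weakest peak of both lists. Of 9 HSC marker genes, 6 carried H3K4me3 at a promoter at each age, whereas none of 4 T-cell, 4 B-cell or 5 granulocyte and monocyte markers did at either age.

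H3K4me3 lay at a promoter of 5 of the 10 AP-1 genes in Young HSCs and of 5 in Aged HSCs. All protein-coding genes gave 33.8% in Young and 23.3% in Aged HSCs. Jun, Fos and Atf3 were marked at both ages, Fosb and Fosl1 in the Young list only, and Batf and Batf3 in the Aged list only. For comparison, 17.5% of all genes were marked at both ages. In the wider window of gene body and 5 kb, 7 AP-1 genes held an H3K4me3 peak in Young (40.6% of all genes) and 9 in Aged HSCs (29.0%), with 16 peaks covering 4825 bp in Young and 14 peaks covering 3722 bp in Aged HSCs. The Aged count includes Fosl1, whose only Aged peak lay at the start site of the neighbouring gene Ccdc85b. In the gene body without flanks the counts were 7 in Young and 8 in Aged HSCs. The windows of the AP-1 genes had a median length of 17.9 kb, shorter than the 27.4 kb of all genes.

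The equal promoter counts rested on the placement and strength of a few peaks. With promoters of 500 bp on either side the counts were 2 in Young and 5 in Aged HSCs, and with the strongest 6723 peaks of each list they were also 2 and 5. With start sites of every transcript, coding or not, they were 7 and 6. Shares of all genes were not computed under these settings, so it is not known whether all genes shift in the same way.

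**Figure D1:**
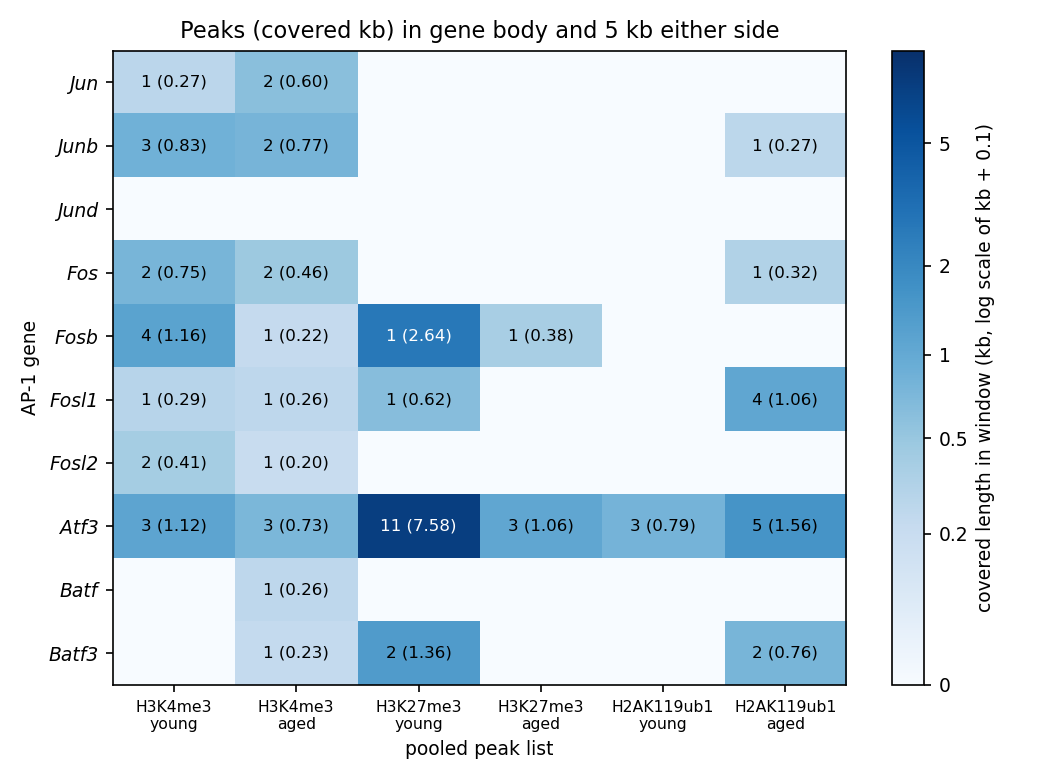
Number of peaks in the gene body and 5 kb either side of each AP-1 gene (rows) in the 6 pooled lists (columns), with the covered length in kb in brackets and as colour on a log scale. Blank cells hold no peak. Atf3 stands out with 11 H3K27me3 regions in Young HSCs, and Jund is blank in all 6 lists.

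Among the Jun genes, Jun encodes the strongest transcriptional activator of the family. Its 1 Young H3K4me3 peak (chr4:95051589-95051857, in the UTR of its single exon) lay 365 to 633 bp downstream of the start, with a fold enrichment over background of 3.83 and a −log10 q-value of 3.67. The summit held 17 reads (95% Poisson interval 9.9 to 27.2, which covers counting error only, here and below), and 75.2% of the Young list reached this q-value or a better one. The peak was thus among the weaker ones of its list.
In Aged HSCs the same stretch carried a longer peak of 394 bp (chr4:95051539-95051932) that contained all 269 bp of the Young peak. Its fold enrichment was 2.96 and its −log10 q-value 1.93, and 98.4% of the Aged list ranked at or above it. A second Aged peak lay in the coding exon (chr4:95050334-95050538, 1684 to 1888 bp downstream, fold enrichment 3.31). The summit over the shared stretch held 16 reads (9.15 to 26.0) in Aged HSCs, and the intervals of both ages overlap. Jun had no Polycomb region in its window, and the closest H3K27me3 region lay 1830569 bp away in Young and 1831166 bp away in Aged HSCs. The closest H2AK119ub1 region lay 3049189 bp away in Young and 39.5 kb away in Aged HSCs.

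Junb, the Jun protein that often acts against Jun, carried H3K4me3 in its transcribed part but outside the 1 kb promoter. A Young peak of 598 bp (chr8:84976712-84977309, UTR and downstream intron of the annotation) lay 1409 to 2006 bp from the start with a fold enrichment of 4.89, a −log10 q-value of 6.54 and 22 reads at its summit (13.8 to 33.3). The overlapping Aged peak of 492 bp (chr8:84976879-84977370) had a fold enrichment of 4.42, a −log10 q-value of 4.71 and 19 reads (11.4 to 29.7), and 431 bp were common to both. By width both were in the upper part of their lists, since 7.00% of Young and 7.35% of Aged peaks were as wide or wider.
A second Young peak in the coding exon (chr8:84977460-84977686) missed the promoter by 32 bp and had no Aged counterpart. The remaining H3K4me3 peaks of the window, 1 at each age, lay more than 8 kb downstream at the start sites of Prdx2, Rnaseh2a and Gm49661, and so belong to neighbouring genes. The only Polycomb region at Junb was an Aged H2AK119ub1 region of 265 bp upstream of the gene (-3238 to -2974 bp, −log10 q-value 1.18), which 99.1% of its list matched or exceeded.

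Jund, the Jun gene that is usually expressed without stimulation, was the exception of the family. No peak of any list fell in its window (chr8:70698949-70700616 with 5 kb on either side), as was the case for 31.6% of all protein-coding genes. The closest H3K4me3 peak lay 25.3 kb from its start in Young and 39.3 kb in Aged HSCs. The closest H3K27me3 region was 26.1 kb away in Young and 161 kb away in Aged HSCs, and the closest H2AK119ub1 region 165 kb away in Young and 30.5 kb away in Aged HSCs. Its window of 11668 bp was the shortest of the 10. An unlisted gene is one without a called peak, which does not show that the mark was absent.

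**Figure D2:**
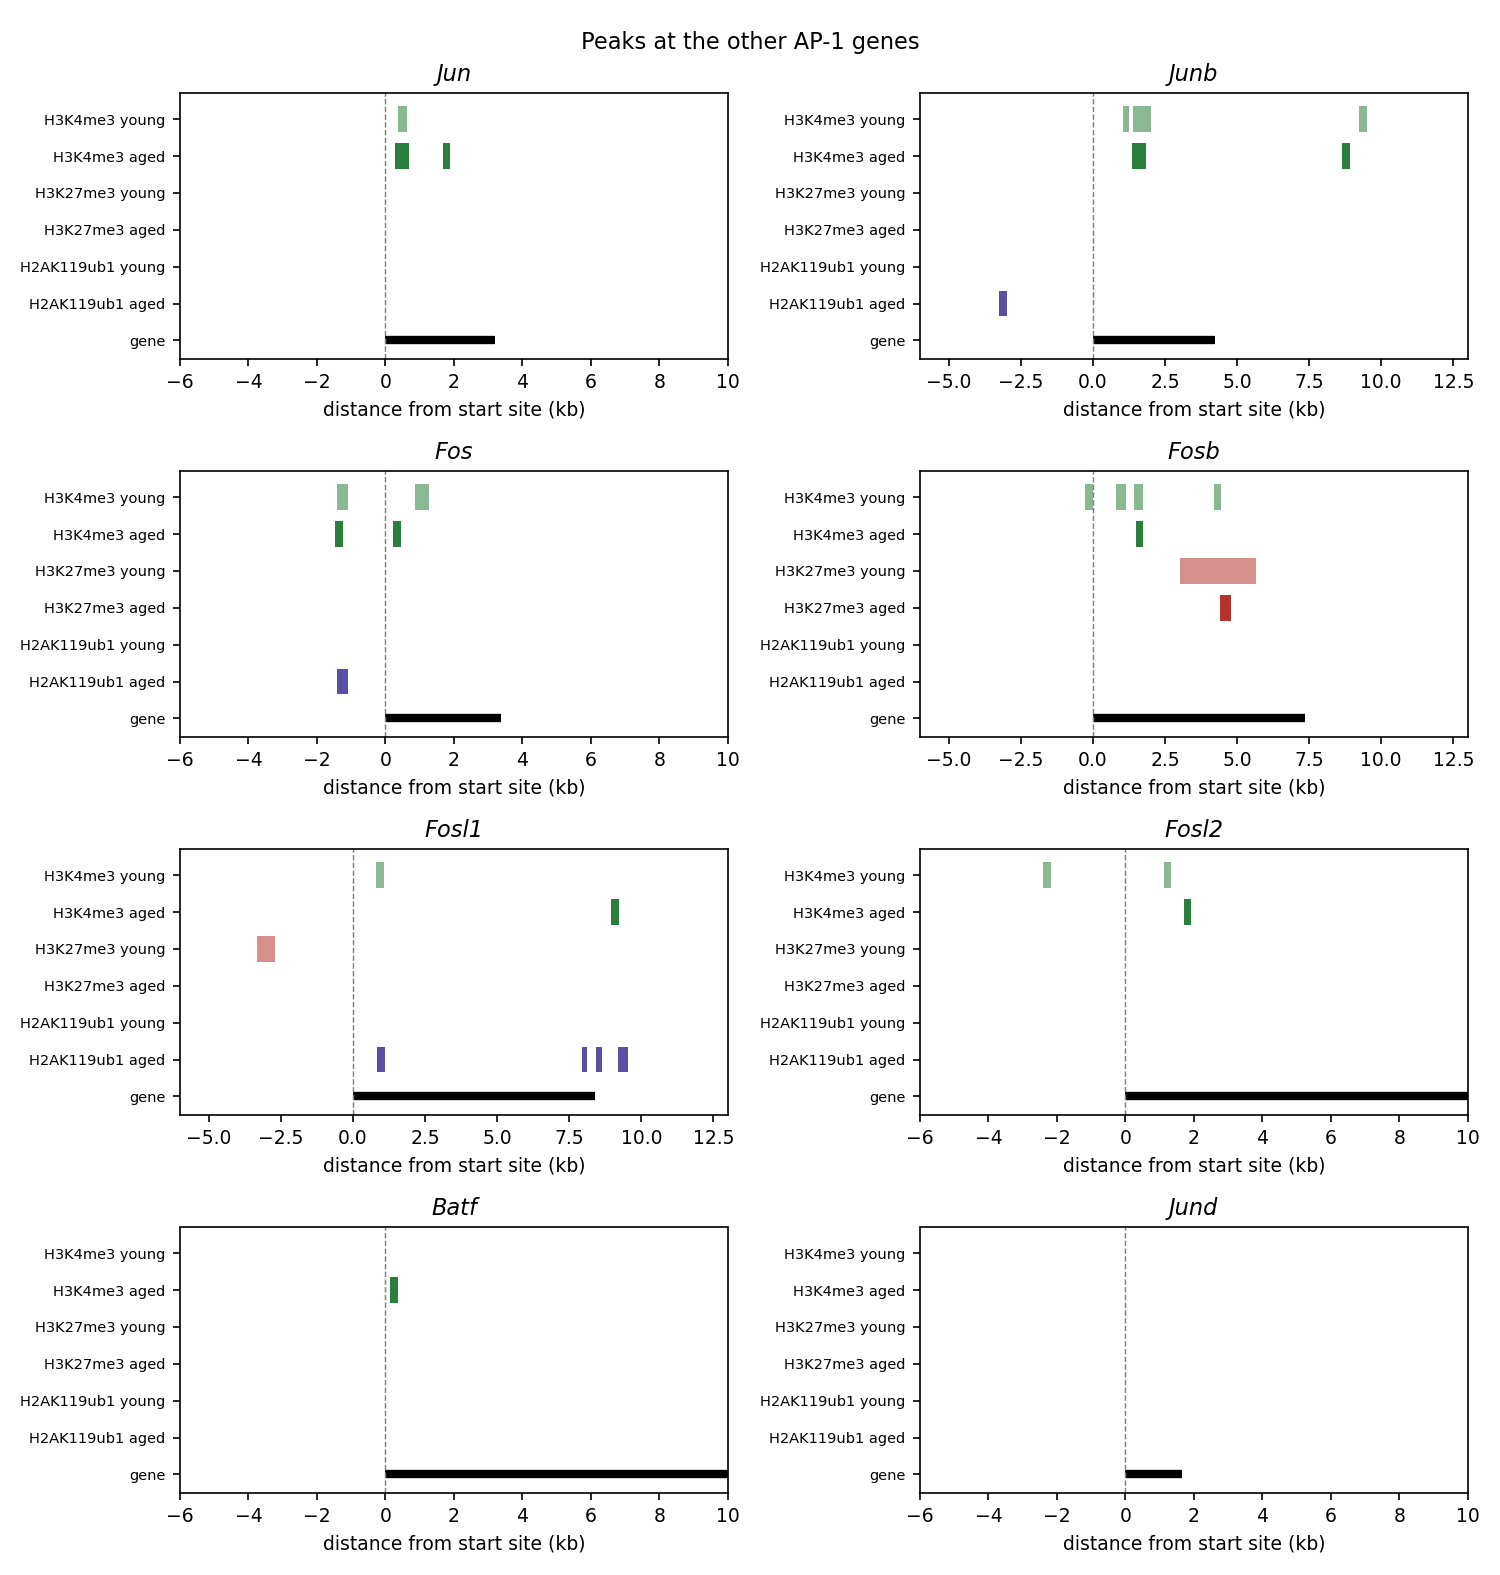
Position of all listed peaks at 8 AP-1 genes, in kb from the start of the gene in the direction of transcription (dashed line; negative is upstream). Each row is 1 pooled list, with Young in pale and Aged in full colour, and the black bar is the gene. H3K4me3 lies mostly from 0 to 2 kb downstream of the start, the only H3K27me3 regions are at Fosb and Fosl1, and Jund has no peak.

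Among the Fos genes, Fos is the classic immediate-early gene. It carried H3K4me3 at the promoter at both ages but at different places. The Young promoter peak of 410 bp (chr12:85474740-85475149, coding exon and intron) lay 850 to 1259 bp downstream with a fold enrichment of 4.64, a −log10 q-value of 6.09 and 22 reads (13.8 to 33.3). The Aged promoter peak of 233 bp (chr12:85474115-85474347) lay 225 to 457 bp downstream with a fold enrichment of 3.98, a −log10 q-value of 3.65 and 17 reads (9.9 to 27.2). The 2 promoter peaks did not overlap, so the call at both ages does not mean the same position.
An upstream element, by contrast, was listed at both ages. The Young peak there ran from -1426 to -1086 bp (16 reads, −log10 q-value 2.85) and the Aged peak from -1468 to -1238 bp (21 reads, −log10 q-value 5.83), with 189 bp in common. An Aged H2AK119ub1 region of 323 bp (chr12:85472468-85472790, fold enrichment 3.04) lay at the same place, wholly inside the Young H3K4me3 peak and sharing 185 bp with the Aged one. No H3K27me3 region was listed in the Fos window at either age.

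Fosb, which shares the immediate-early behaviour of Fos, had the strongest H3K4me3 promoter peaks of the family in the Young list. Its window held 4 Young peaks and 1 Aged peak. Its −log10 q-values summed over promoter peaks of both ages came to 20.9, against 9.96 for Atf3, 9.74 for Fos and 5.60 for Jun. All of the Fosb sum came from 3 Young peaks, as 0 Aged peaks lay at its promoters, and such a sum grows with the number of peaks. In Young HSCs a peak directly upstream (chr7:19310058-19310315, -264 to -7 bp) held 30 reads at its summit (20.2 to 42.8), the most of any AP-1 peak, over a local background of 5.94 reads, with a fold enrichment of 4.47 and a −log10 q-value of 7.77. A Young peak in the intron (chr7:19308319-19308611, 989 to 1281 bp downstream of the nearest start) reached a fold enrichment of 5.31, the highest of the family, with the same −log10 q-value, which 9.72% of the list matched or exceeded.
2 further Young peaks lay in introns, 338 to 695 bp (20 reads) and 3751 to 3997 bp downstream (15 reads). In Aged HSCs a single peak was listed (chr7:19308320-19308540), wholly inside the Young intronic peak, with a fold enrichment of 4.64, a −log10 q-value of 5.27 and 20 reads (12.2 to 30.9). It began 1060 bp from the nearest start and so missed the promoter by 60 bp, whereas the Young peak reached 12 bp into it. The promoter call at this position thus differed by a few bases at the edge, while the upstream peak and the peak at 338 to 695 bp had no Aged counterpart at all.
The H3K27me3 region of Fosb in Young HSCs spanned 2643 bp inside the gene (chr7:19304389-19307031, coding exons, UTR and introns), 2569 to 5211 bp downstream of the nearest start, with a fold enrichment of 3.57 and a −log10 q-value of 2.90. It was the strongest and widest H3K27me3 region of any AP-1 gene, and 2.72% of the Young regions were as wide or wider. In Aged HSCs a region of 379 bp inside it was listed (chr7:19305250-19305628, fold enrichment 3.25, −log10 q-value 1.73). The weakest Young H3K4me3 peak lay wholly inside the Young H3K27me3 region. No H2AK119ub1 region was listed at Fosb at either age.

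Fosl1 (Fra-1), a Fos protein without a strong activation domain, carried different marks at its promoter in the lists. The Young list held an H3K4me3 peak of 291 bp in the intron (chr19:5448345-5448635, 798 to 1088 bp downstream, fold enrichment 3.83, 17 reads with an interval of 9.9 to 27.2). The Aged list held no H3K4me3 peak there but an H2AK119ub1 region of 306 bp (chr19:5448364-5448669, fold enrichment 3.65, −log10 q-value 2.48), which shared 272 bp with the Young H3K4me3 peak. That region ranked in the upper part of its list, with 13.3% of Aged regions at or above its q-value.
3 further Aged H2AK119ub1 regions lay at and behind the end of the gene, 7929 to 9539 bp downstream, and the last of them and the only Aged H3K4me3 peak of the window were at the start site of the neighbouring gene Ccdc85b. A Young H3K27me3 region of 624 bp lay upstream of the gene (-3315 to -2692 bp, −log10 q-value 1.47) without an Aged counterpart.

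Fosl2 (Fra-2) carried H3K4me3 close to, but not within, its GENCODE promoter. The Young peaks lay at -2392 to -2184 bp (19 reads) and 1143 to 1342 bp (18 reads), and the Aged peak at 1714 to 1913 bp (16 reads, 9.15 to 26.0). None overlapped between the ages, and no Polycomb region was listed at either age. The RefSeq start of Fosl2 lies 671 bp downstream of the GENCODE start, and with it the Young intronic peak would fall in the promoter.

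Atf3, a stress-induced member of the family that can repress as well as activate, was the only AP-1 gene with all 3 marks at both ages. Its gene body of 47744 bp (chr1:191170296-191218039, minus strand) is the longest of the 10 and holds 2 start sites, an upstream one at the end of the gene and an internal one close to the RefSeq start. Its window of 57744 bp is likewise the longest, and the share of all genes with all 3 marks at both ages was not computed. H3K4me3 lay around the internal start. Young peaks ran from -879 to -503 bp (22 reads, 13.8 to 33.3), from -1904 to -1539 bp (19 reads) and from -2574 to -2200 bp (20 reads), whereas Aged peaks ran from -213 to 41 bp (15 reads, 8.4 to 24.7), from 441 to 640 bp (17 reads) and from -2447 to -2173 bp (16 reads). Only the peaks farthest upstream overlapped between the ages, by 248 bp, and the peaks over the internal start itself were listed in Aged HSCs alone. The fold enrichments were 3.31 to 4.46 in Young and 3.54 to 3.98 in Aged HSCs.

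H3K27me3 at Atf3 was far more extensive in the Young list. 11 Young regions covered 7575 bp of the window, 62.1% of all H3K27me3 at the AP-1 genes, and the widest of them were 2026 bp (chr1:191183679-191185704, -2364 to -339 bp of the internal start), 1673 bp (chr1:191215297-191216969, 1070 to 2742 bp downstream of the upstream start) and 1286 bp (chr1:191179095-191180380, 2960 to 4245 bp downstream of the internal start). 4.33%, 5.86% and 8.98% of the Young regions were as wide or wider. In Aged HSCs 3 regions covered 1065 bp.
The Aged regions of 361, 491 and 213 bp all fell on Young regions, with 354, 491 and 213 bp in common, so no Aged region lay wholly apart from the Young ones. The region of 2026 bp upstream of the internal start, which contained or touched all 3 Young H3K4me3 peaks (377, 366 and 165 bp shared), had no Aged counterpart. Atf3 was the only AP-1 gene with both H3K4me3 and H3K27me3 at a promoter in Young HSCs, a combination present at 2.96% of all genes. Pooled lists cannot show whether both marks sat on the same molecules or in different cells.

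H2AK119ub1 at Atf3 was listed at both ages but never at the same position. The 3 Young regions of 202, 326 and 262 bp lay 5959 to 6160 bp and 2694 to 3019 bp downstream and -10329 to -10068 bp upstream of the internal start, and the first of them had a −log10 q-value of 2.94, which 3.70% of the Young list matched or exceeded. The 5 Aged regions covered 1558 bp from -4119 to 4214 bp. The strongest Aged region (525 bp, chr1:191185358-191185882, fold enrichment 3.80, −log10 q-value 2.68) contained the whole Aged H3K4me3 peak of 275 bp at the same place and shared 347 bp with the Young H3K27me3 region. 3 of the 5 Aged H2AK119ub1 regions overlapped regions that carried H3K27me3 in Young HSCs. The share of all Aged H2AK119ub1 regions with such an overlap was not computed, so this count has no reference.

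**Figure D3:**
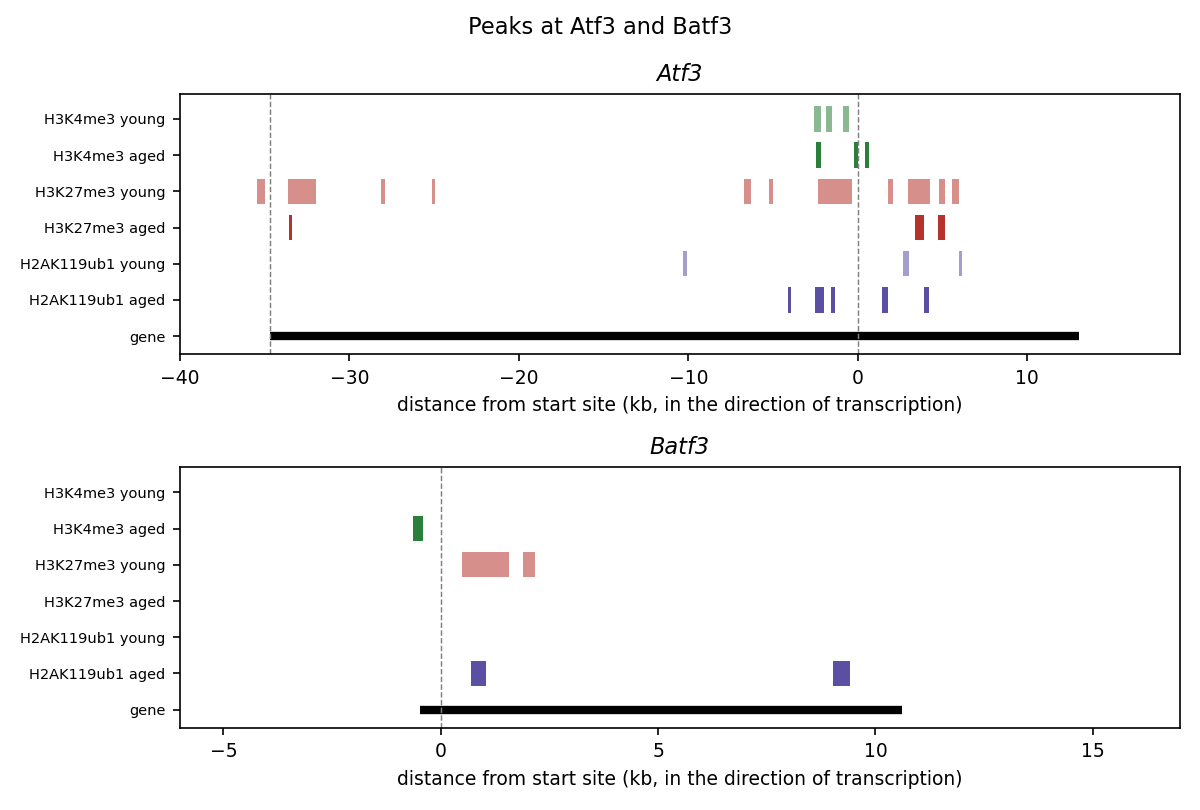
Listed peaks at Atf3 and Batf3 in the 6 lists, in kb from the internal start of Atf3 and from the coding start of Batf3 (dashed lines at 0; the other dashed line is the upstream start of Atf3). Young is pale and Aged full in colour, and the black bar is the gene. The 11 Young H3K27me3 regions of Atf3 contrast with 3 in Aged HSCs, and the Aged H2AK119ub1 region of Batf3 lies within the Young H3K27me3 region.

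Batf3, known for its requirement in a subset of dendritic cells, lies 61.4 kb from Atf3 on chromosome 1, with 1 protein-coding gene between them. Its promoter carried a Young H3K27me3 region of 1077 bp in the intron (chr1:191098822-191099898, 497 to 1573 bp downstream, fold enrichment 3.01, −log10 q-value 2.29) and no H3K4me3 peak. In Aged HSCs no H3K27me3 region was listed, and an H2AK119ub1 region of 358 bp (chr1:191099014-191099371, fold enrichment 3.07, −log10 q-value 1.55) lay wholly inside the Young H3K27me3 region. An Aged H3K4me3 peak of 225 bp (chr1:191097683-191097907, fold enrichment 3.76, 16 reads with an interval of 9.15 to 26.0) lay -642 to -418 bp from the start of coding transcripts. It spanned the annotated 5′ end of the gene at chr1:191097847, and 85.8% of its list ranked at or above it. Farther away, a second Young H3K27me3 region of 280 bp and a second Aged H2AK119ub1 region of 405 bp lay 1884 to 2163 bp and 9013 to 9417 bp downstream.

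Batf, which pairs with Jun proteins in lymphocytes, had a single peak in all 6 lists. This was an Aged H3K4me3 peak of 255 bp over the first exon (chr12:85686795-85687049, 126 to 380 bp downstream, coding exon, UTR and intron), with a fold enrichment of 4.38, a −log10 q-value of 4.90 and 20 reads (12.2 to 30.9). It ranked higher than most Aged AP-1 peaks, with 33.2% of the list at or above its q-value. No Young peak was listed, and the weakest peak of the Young list, at 13 reads, lies within the interval of the Aged peak.

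Across the family, more H3K4me3 summits lay downstream than upstream of the nearest start. Leaving out the peaks at start sites of other genes, 8 of 15 Young summits and 8 of 12 Aged summits fell within the first 2 kb downstream, 6 and 4 lay upstream, and 1 Young summit and 0 Aged summits lay beyond 2 kb. The Aged Batf3 summit at -474 bp counts as upstream, though its peak spanned the annotated 5′ end of the gene. The share over all H3K4me3 summits was not computed, and the windows of most of the genes hold more downstream than upstream sequence. The summits held 15 to 30 reads in Young HSCs (median 19) and 15 to 21 reads in Aged HSCs (median 17), close to the medians of 20 and 19 over the whole lists. Over all 16 Young and 14 Aged peaks of the windows, peaks at other genes included, the fold enrichment had a median of 4.04 in Young HSCs, equal to the median of the list, and of 3.87 in Aged HSCs against 4.20 in the list. Their width had a median of 293 bp in Young (list 296 bp) and 244 bp in Aged HSCs (list 270 bp). In these medians the AP-1 peaks thus lay near or below those of their lists. Each Aged interval, and most of the Young intervals, reached down to the 13 reads of the weakest listed peak. Whether counting error decided any call was not tested.
5 genes (Jun, Junb, Fos, Fosb and Atf3) had H3K4me3 peaks at overlapping positions at both ages. The share of all genes with such an overlap was not computed, so this count has no reference. The covered length was greater in Young for 6 genes and greater in Aged for 3, a split that was not computed for all genes. The ratio of Aged to Young covered length was 0.771 at the AP-1 genes and 0.529 over the whole lists. With lists of equal length the direction turned, with 8 Young peaks covering 2867 bp and 14 Aged peaks covering 3722 bp.

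**Figure D4:**
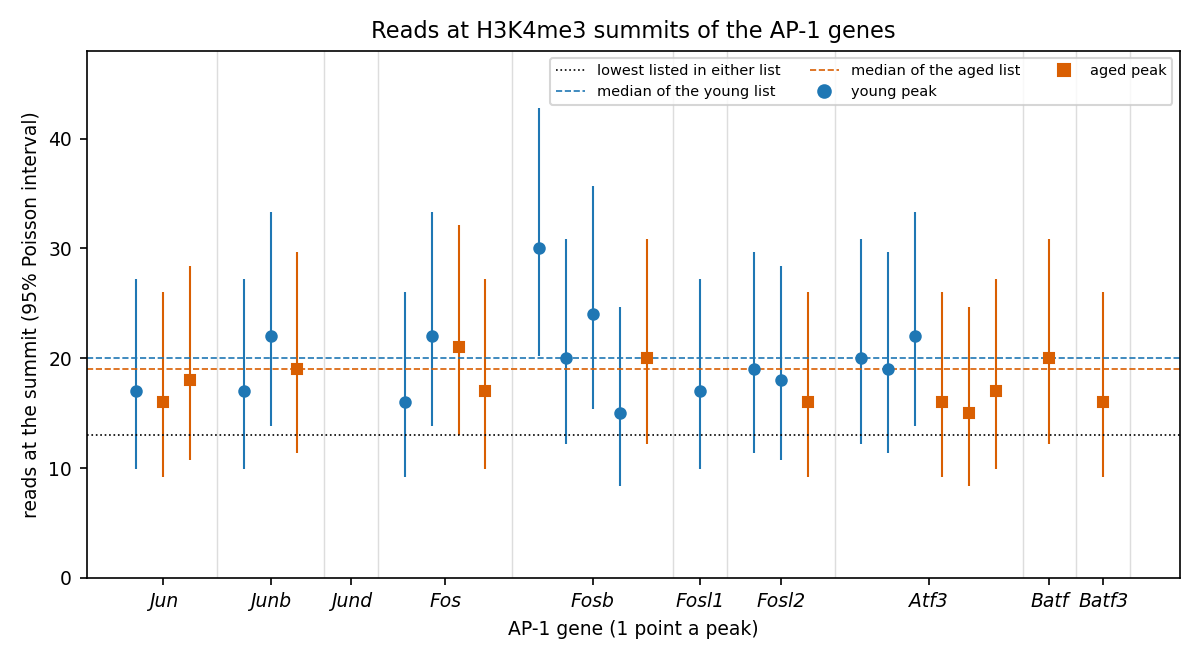
Reads at the summit of each H3K4me3 peak of the AP-1 genes, without peaks at start sites of other genes, with 95% Poisson intervals (circles Young, squares Aged; 1 point a peak). Dashed lines are the medians of the lists, 20 and 19 reads, and the dotted line the weakest listed summit, 13 reads. Only the Fosb peak of 30 reads has an interval that lies wholly above both medians.

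The Polycomb marks differed between the lists in opposite directions. H3K27me3 lay at a promoter of 2 AP-1 genes in Young (Atf3 and Batf3; 16.0% of all genes) and of 0 in Aged HSCs (8.24%), and in the window of 4 genes in Young (Fosb, Fosl1, Atf3 and Batf3; 27.8%) and of 2 in Aged HSCs (Fosb and Atf3; 16.5%). H2AK119ub1 lay at a promoter of 0 genes in Young (1.91% of all genes) and of 2 in Aged HSCs (Fosl1 and Batf3; 14.0%), and in the window of 1 gene in Young (Atf3; 5.99%) and of 5 in Aged HSCs (Junb, Fos, Fosl1, Atf3 and Batf3; 29.0%). For all genes, too, H3K27me3 was the more frequent mark in the Young and H2AK119ub1 in the Aged list.
In covered length, H3K27me3 came to 12199 bp in 15 Young regions and 1444 bp in 4 Aged regions, and all 4 genes with any region had more in Young. H2AK119ub1 covered 790 bp in 3 Young and 3974 bp in 13 Aged regions, and all 5 genes with any region had more in Aged. The ratio of Aged to Young length was 0.118 for H3K27me3, against 0.244 over the whole lists, and 5.03 for H2AK119ub1, against 7.83. With lists of equal length, H3K27me3 gave 3 Young regions covering 5602 bp and 4 Aged regions covering 1444 bp, and H2AK119ub1 gave 3 Young regions covering 790 bp and 2 Aged regions covering 831 bp. The direction of the number of regions thus turned for both marks. That of the length held for H3K27me3, whereas the lengths of H2AK119ub1 were nearly equal. The difference in gene counts for H3K27me3 was then no longer seen, with 0 genes at a promoter and 2 genes in the window at each age. For H2AK119ub1 the gene counts were 0 Young and 1 Aged at a promoter and 1 Young and 2 Aged in the window.
No region of either Polycomb mark at an AP-1 gene reached a −log10 q-value of 4. At overlapping positions at both ages, H3K27me3 was listed in 2 genes (Fosb and Atf3) and H2AK119ub1 in 0. The share of all genes with such an overlap was not computed for either mark, nor were shares of all genes for lists of equal length. How many of all genes had more covered length in Young or in Aged HSCs was not computed either. Whether 1 library or the other made up a pooled list was not tested.

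The other genes of the pathway were described by lists chosen for what they encode. Of 20 bZIP partners and relatives, 14 carried H3K4me3 at a promoter in Young and 10 in Aged HSCs, all 10 of them at both ages, with the highest Young peaks at Atf6, Nfe2 and Crem (−log10 q-values of 10.3, 9.72 and 7.88). Of the AP-1 genes, 3 of 10 were marked at both ages, and the difference between these lists was not tested. Of 17 kinases and factors upstream of AP-1, 12 were marked in Young and 7 in Aged HSCs, led in Young by Elk3 and Elk4 (7.16 each), which bind the Fos promoter with serum response factor, and by Srf itself (6.67). Of 17 other immediate-early genes, 11 were marked in Young and 8 in Aged HSCs, led in Young by Nr4a2 and Myc (9.10 each) and Klf6 (7.16).
The Polycomb marks were described at the promoters of the upstream and the other immediate-early genes. H3K27me3 lay at 1 upstream gene at both ages (Mapk10), and at 4 other immediate-early genes in Young (Egr2, Egr3, Nr4a2 and Klf4) and 2 in Aged HSCs (Egr2 and Nr4a2). H2AK119ub1 lay at none of these genes in Young HSCs. In Aged HSCs it lay at 1 upstream gene (Srf) and 5 other immediate-early genes (Egr2, Ier5, Nr4a2, Klf4 and Myc). The shares for all genes given above apply to these lists as well.

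**Figure D5:**
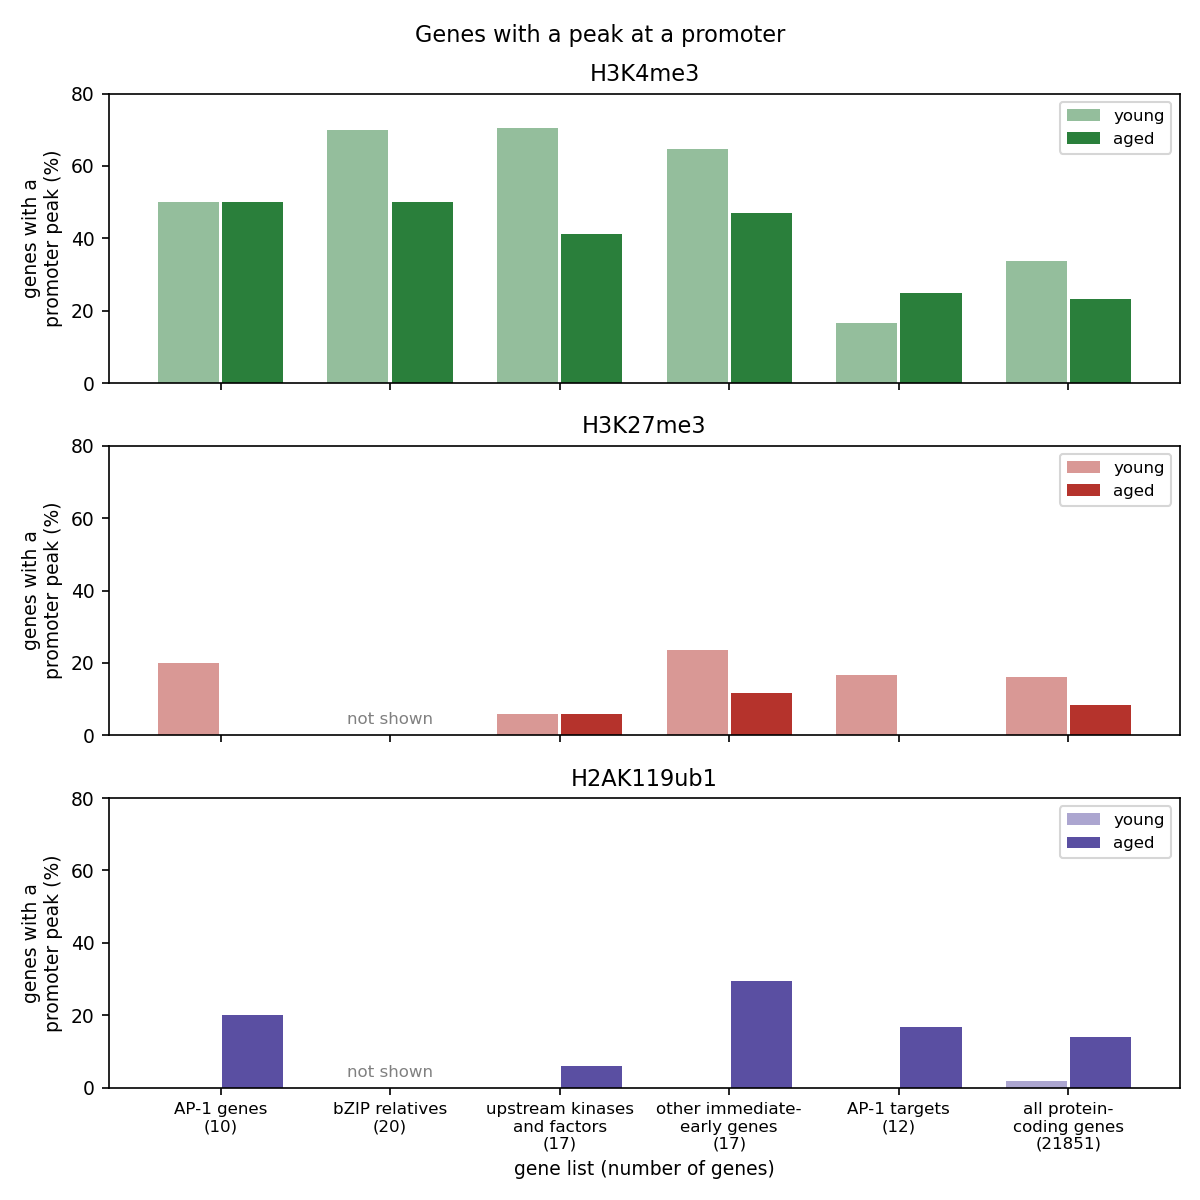
Share of genes with a promoter peak (percent, bars from 0) in each gene list, for the 3 marks in Young (pale) and Aged (full colour) HSCs, beside all protein-coding genes. Polycomb marks are not shown for the bZIP relatives, and no bar has an error, since each list is 1 pooled call. The AP-1 genes stand at 5 of 10 for H3K4me3 at both ages.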

How the data were processed

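Peak lists of 3 histone marks in Young and Aged HSCs were analysed, 6 lists in all. Per the labels and the study's methods, chromatin was cross-linked, cut with micrococcal nuclease and sonicated, and single reads were aligned to mm10 with Bowtie2. MACS2 2.2.6 is named in the submitters' processing notes, though the methods for ChIP-seq do not name the peak caller. H3K4me3 was deposited as narrow peaks and the Polycomb marks as broad regions, whose values are averages over a region. The deposited lists give a fold enrichment (a linear ratio), a −log10 p-value, a −log10 q-value and a score, as the authors' caller wrote them. The score was not used. The deposited summit offsets of the H3K4me3 lists, a distance in bp, were used to place summits. The names of the H3K4me3 peaks carry a pair of library numbers and those of the broad regions 1 number, so whether both replicates entered each broad list is not certain. In a pooled call, 1 library can carry a peak by itself.

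Peaks of the assembled chromosomes (autosomes 1 to 19, X and Y) were intersected with windows by at least 1 bp in Python 3.11.15 (numpy 2.4.6, pandas 2.3.3), using the basic set of GENCODE M21. Summit reads were recovered from the fold enrichment, (reads + 1) / (background + 1), and the Poisson p-value with scipy 1.17.1. A whole number was found for 100% of H3K4me3 peaks, within 0.001 on the −log10 p-value. The overlap and recovery code was tested on simulated data. Plots were drawn with matplotlib 3.10.9. The genes, the gene lists and the alternatives were chosen with earlier results of these data known. All 10 AP-1 genes are named. Of the other lists, at most 3 genes with the highest promoter peaks are named, and every gene of a count of 5 or fewer. Upstream sequence was printed for the 4 genes with the highest summed −log10 q-value of promoter peaks and for those with a Polycomb region at a promoter, ending before the GENCODE start where the RefSeq start lay more than 30 bases downstream of it. No test between ages was possible, since each mark and age is 1 list. Input libraries were not analysed here, and the erythroid markers and the Polycomb marks at bZIP relatives are not reported here.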

Additional observations from a re-analysis of the deposited data

How the results depend on the processing

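27 counts and lengths were recomputed under 12 alternatives, and 117 of 171 comparisons stayed within 1.5 times the value given, while 54 did not. The shares of all genes were not recomputed. Threshold and list length moved most. With peaks of a −log10 q-value from 4 upwards, H3K4me3 lay at the promoter of 2 Young and 1 Aged AP-1 genes. It lay in the window of 5 genes in Young and 4 in Aged HSCs, against 7 and 9 as reported, so the direction of this count turned. There were 9 Young and 5 Aged peaks covering 3067 and 1478 bp, and 2 genes had shared positions. Every count and length of H3K27me3 and H2AK119ub1 was 0 at this threshold. With a −log10 q-value from 2 upwards, H3K27me3 gave 6 Young regions and 1 Aged region of 361 bp in 1 gene, shared in 1 gene, and H2AK119ub1 gave 1 Young region of 202 bp and 4 Aged regions of 1390 bp in 2 genes, with 1 at a promoter. With the same number of peaks at both ages, H3K4me3 gave 2 Young promoters against 5 Aged, 8 Young peaks covering 2867 bp against 14 Aged covering 3722 bp, and 3 genes with shared positions. H3K27me3 gave 0 promoters at both ages and 3 Young regions in 2 genes covering 5602 bp against 4 Aged regions in 2 genes covering 1444 bp, and H2AK119ub1 gave 1 Aged promoter and 2 Aged regions in 2 genes covering 831 bp against 3 Young regions in 1 gene covering 790 bp. The direction between the ages thus turned for H3K4me3 peaks and covered length and for the number of regions of both Polycomb marks, and the H3K27me3 gene counts became equal. Promoters of 500 bp gave 2 genes with H3K4me3 in Young and 0 with H2AK119ub1 in Aged HSCs, and promoters of 2 kb gave 8, 1 and 4 genes with H3K4me3, H3K27me3 and H2AK119ub1 in Aged HSCs. Requiring 50% of a peak inside the window left 1 gene with H3K27me3 at a promoter in Young HSCs, and leaving out the flanks left 3 genes with H2AK119ub1 in Aged HSCs. RefSeq start sites, an alternative chosen after seeing the data and without Fosl1, left 1 gene with H2AK119ub1 at a promoter in Aged HSCs. Start sites of every transcript, flanks of 10 kb, sharing of 50% of the shorter peak and joining of peaks within 1 kb moved no value past 1.5 times. Fewer peaks enter under the stricter thresholds and equal lists by construction, and the cause of the other changes was not tested. No paired analysis was possible because replicates were pooled into 1 list, which also prevents leaving out a replicate.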

Other observations

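Of 12 known target genes of AP-1, 2 carried H3K4me3 at a promoter in Young HSCs (16.7%, against 33.8% of all genes) and 3 in Aged HSCs (25.0%, against 23.3%), namely Ccnd1 and Cd44 at both ages and Vim in the Aged list only. Ccnd1, the cyclin of the G1 phase, had its highest promoter peak at a −log10 q-value of 5.35 in Young and 4.71 in Aged HSCs. Cd44, an adhesion receptor of HSCs, had 5.94 in Young and 5.27 in Aged HSCs, and its highest Aged peak was 796 bp wide against 226 bp in Young HSCs. Vim, an intermediate filament gene, had an Aged peak of 799 bp with a −log10 q-value of 6.84. H3K27me3 lay at the promoters of Mmp9, a matrix protease, and Timp1, an inhibitor of such proteases, in the Young list (16.7%, against 16.0% of all genes) and of none of the 12 in the Aged list (8.24% of all genes). H2AK119ub1 lay at Mmp9 and Tnf in the Aged list (16.7%, against 14.0% of all genes) and at none in the Young list (1.91% of all genes). The H3K4me3 share in Young HSCs was lower than that of all genes. The other shares lay close to those of all genes where any target was marked. These values come from single pooled lists, so differences between them were not tested.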
